A study of Mus musculus with 4 samples.

Results

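Foxp3 regulatory T cells (Tregs) of mouse pancreatic tumours were described by droplet single-cell RNA sequencing, in which each captured molecule is counted by its unique molecular identifier (UMI). The cells were picked by their own transcripts. A barcode with at least 500 UMIs, at least 250 genes and at most 20% mitochondrial UMIs was taken as a Treg when Cd3d, Cd3e and Cd3g together had at least 1 UMI, Foxp3 had at least 1, and Cd8a, Cd8b1, Csf1r and Cd79a had none. This gave 243 Tregs of 44162 kept cells, of which 162 came from AF12198-treated tumour, 81 from control tumour, and none from ligated or normal pancreas.

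Each of the 4 groups was 1 library. Both tumours grew from KPC cells, a mouse pancreatic cancer line, placed in a pancreas whose duct had been closed by suture, and were collected at 4 weeks. One was given weekly AF12198, a peptide that blocks IL1R1, the receptor for interleukin-1, and the control was given saline; both injections were intraperitoneal. The other libraries were a suture-ligated pancreas, in which ligation brings on pancreatitis, and a normal pancreas. No source used here gives the strain, sex or age of the mice, or how many were behind a library.

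Tregs are CD4 T cells that restrain other immune cells. The transcription factor Foxp3 maintains their identity, the interleukin-2 receptor chain Il2ra lets them take up interleukin-2, and Ctla4 strips costimulatory ligands from antigen-presenting cells. Tregs of injured and tumour-bearing tissue are known to carry the interleukin-33 receptor Il1rl1 (ST2), the repair factor Areg and the transcription factor Gata3.

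Tregs held 762409 UMIs in AF12198-treated tumour (median 3288 per cell) and 341102 in control tumour (median 2826). Levels below are UMIs summed over a class and scaled to counts per 1e+06 (CPM), so 1 UMI was worth 1.31 CPM in AF12198-treated tumour and 2.93 CPM in control tumour. The libraries differed across all T cells: ribosomal protein genes took 19.4% of Treg UMIs in AF12198-treated tumour and 11.4% in control tumour, against 24.8% and 13.5% in CD8 T cells. The median mitochondrial share of a Treg was 3.79% in AF12198-treated tumour and 5.98% in control tumour. The tumour libraries shared 129 barcodes, and no barcode was a Treg in both.

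Il2ra, Ikzf2 and Tnfrsf4 were named as Treg markers together with the gate, so their values describe the cells and are no independent check of the label. Il2ra UMIs were found in 144 of 162 Tregs of AF12198-treated tumour and 71 of 81 of control tumour. Ikzf2 (Helios, a zinc finger factor of Tregs) was found in 154 of 162 and 80 of 81, and Tnfrsf4 (the costimulatory receptor OX40) in 134 of 162 and 69 of 81. In cells thinned to 1000 UMIs, Il2ra was found in 65.4% and 70.9% of Tregs, against 0.494% and 0.497% of Csf3r-positive cells without Cd3, which should lack it. Cd4 UMIs were found in 80 of 162 and 28 of 81 Tregs.

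At the edge of the gate, Tregs with exactly 1 Foxp3 UMI numbered 85 in AF12198-treated tumour and 37 in control tumour. Their Il2ra level was 1483 CPM in AF12198-treated tumour and 1445 CPM in control tumour, and that of Tregs with more Foxp3 UMIs was 1375 and 1791 CPM. Just outside, conventional CD4 T cells with no Foxp3 UMI had 202 and 248 CPM. A Treg whose Foxp3 was missed falls in that class if it has a Cd4 UMI.

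A Foxp3 UMI was rare outside T cells. In AF12198-treated tumour it was found in 0.208% of Csf3r-positive cells without Cd3 (median 1559 UMIs) and in 0.262% of Csf1r-positive ones (median 6162 UMIs), and in 6 of 870 Epcam-positive (0.690%) and 3 of 574 Cd79a-positive ones (0.523%), against 6.26% of Cd3-positive cells (median 3256 UMIs). In control tumour the shares were 0.114% of Csf3r-positive, 0.226% of Csf1r-positive, 0.193% of Epcam-positive and none of 893 Cd79a-positive cells without Cd3, against 3.23% of Cd3-positive cells. Among CD8 T cells, before those with Foxp3 were taken out, the shares were higher than in each of these non-T classes of the same tumour. They were 22 of 1294 (1.70%) in AF12198-treated tumour and 13 of 1461 (0.890%) in control tumour. Their exact binomial intervals overlapped those of Epcam-positive cells in both tumours and of Cd79a-positive cells in AF12198-treated tumour. The part of stray Foxp3 in the Treg shares below was not tested. Of all Foxp3-positive cells, 52 of 273 in AF12198-treated tumour and 42 of 154 in control tumour had no Cd3 UMI and were left out.

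Tregs held a larger share of the cells in AF12198-treated tumour. They were 0.815% of kept cells there (exact binomial 95% interval 0.695 to 0.95%) and 0.379% in control tumour (0.301 to 0.47%), a ratio of 2.15 (1.64 to 2.85). Among Cd3-positive cells they were 162 of 3529 (4.59%) in AF12198-treated tumour and 81 of 3469 (2.33%) in control tumour, a ratio of 1.97 (1.5 to 2.6). Conventional CD4 T cells were 8.95% and 5.39% of the same cells, and CD8 T cells 36.0% and 41.7%. Among Tregs and conventional CD4 T cells pooled, Tregs were 33.9% and 30.2%, and the interval of that ratio (1.12, 0.854 to 1.48) spanned 1. With every cell thinned to 1000 UMIs the ratio over Cd3-positive cells was 1.40, with an interval (0.915 to 2.18) that also spanned 1. Intervals here and below cover counting error only, and with 1 library a group these differences have no replicate check and no test.

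**Figure D1:**
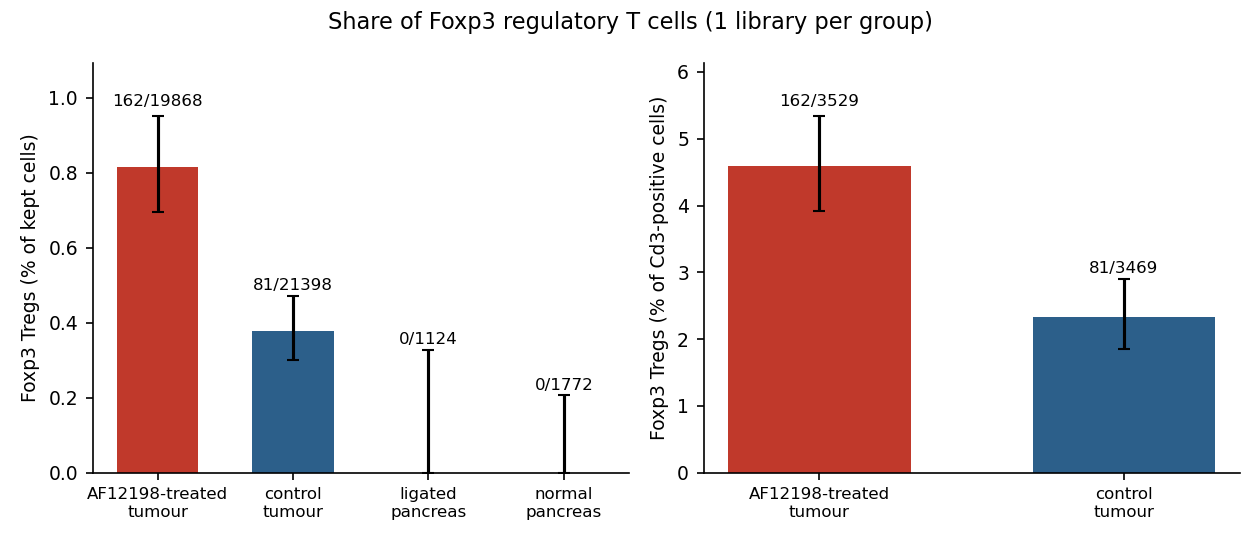
Bars show Tregs as a percent of kept cells in the 4 libraries (left) and of Cd3-positive cells in the tumour libraries (right), with exact binomial 95% intervals and the counts above each bar. AF12198-treated tumour stands at 0.815% and 4.59% and control tumour at 0.379% and 2.33%, and no Treg was found in ligated or normal pancreas.

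Ligated pancreas held 23 Cd3-positive cells and normal pancreas 3. No Treg among 1124 kept cells of ligated pancreas allows a share of up to 0.267%, and none among 1772 of normal pancreas a share of up to 0.169%, each taken as 3 counts of the total. The exact binomial upper limits of the same shares are 0.328% and 0.208%. Over the Cd3-positive cells alone the upper limits are 14.8% in ligated and 70.8% in normal pancreas. Both lie above the 4.59% of AF12198-treated and 2.33% of control tumour. With so few T cells captured, a lower Treg share of T cells is not shown there. Treg expression was not compared with these libraries.

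Tregs were compared with conventional CD4 T cells (316 in AF12198-treated tumour, 187 in control tumour) and with CD8 T cells (1272 and 1448). UMIs were summed per class and library and tested with edgeR's quasi-likelihood test, with the tumour library as a block and 2 residual degrees of freedom. Of 8883 genes tested, 302 (3.40%) rose and 390 (4.39%) fell in Tregs over conventional CD4 T cells at an adjusted p under 0.05, and 531 (5.98%) rose and 532 (5.99%) fell over CD8 T cells. The block matters. Without it edgeR called 0 genes in either direction over conventional CD4 T cells (368 higher and 477 lower at an unadjusted p under 0.05), where DESeq2 with the block called 185 and 203.

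Several Treg identity genes stood higher in both libraries. Of 21 core Treg genes tested, 11 rose and 3 fell over conventional CD4 T cells, against 3.40% and 4.39% of all genes. The median log2 fold change of the 21 was 0.89, against -0.02 for all genes. The 11 and the median include the marker genes Il2ra, Ikzf2 and Tnfrsf4, which are given as a description only. The further rises named below are those of the other core genes. Il2ra had 1419 CPM in Tregs of AF12198-treated tumour and 1665 CPM in those of control tumour, against 202 and 248 CPM in conventional CD4 T cells. Ikzf2 had 1628 and 3295 CPM in Tregs, against 425 and 998 CPM. Tnfrsf4 had 1110 and 1041 CPM in Tregs, against 347 and 290 CPM. The classes did not overlap in any of the 3 genes, which is again a description, as the share of all genes without overlap is not given. Further rises on the log2 scale were those of Ikzf4 (Eos, 2.56), Ctla4 (1.30), Tnfrsf18 (GITR, 1.13), Socs2 (1.61), Lrrc32 (GARP, which displays latent TGF-beta, 1.66), Izumo1r (folate receptor 4, 1.06), Capg (0.89) and Itgae (the CD103 integrin chain, 2.89). Nrp1 (-1.01), Bach2 (-3.60) and Rgs1 (-0.70) fell. Nrp1 did not pass with DESeq2 (adjusted p = 0.107). With cells thinned to 1000 UMIs, Nrp1, Izumo1r, Capg and Socs2 did not pass with edgeR (adjusted p = 0.0703, 0.123, 0.0632 and 0.0536).

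**Figure D2:**
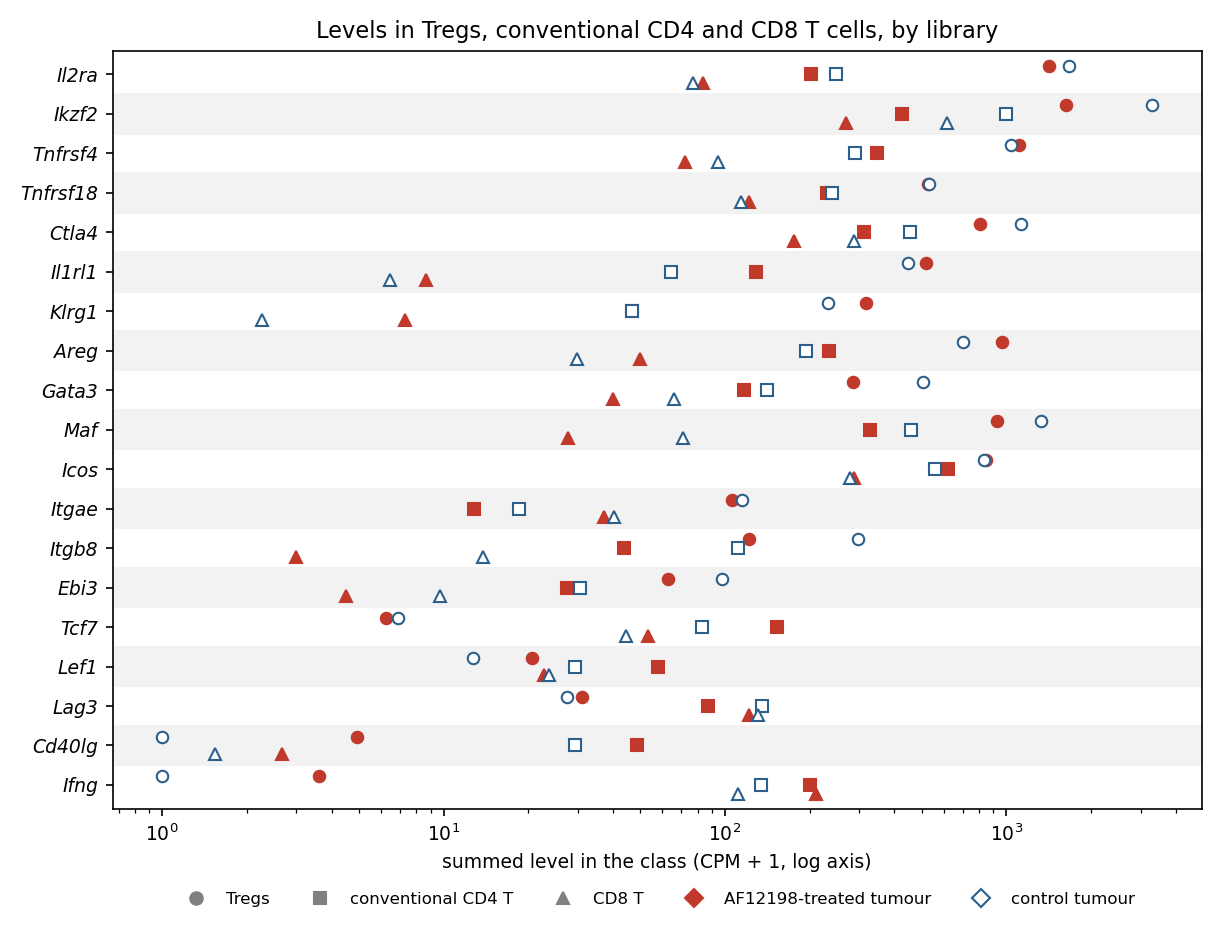
Summed levels (CPM + 1, log axis) of 19 genes in Tregs (circles), conventional CD4 T cells (squares) and CD8 T cells (triangles), filled for AF12198-treated tumour and open for control tumour. Il2ra stands at 1419 and 1665 CPM in Tregs, against 202 and 248 CPM in conventional CD4 T cells, and Ifng at 2.62 and 0 CPM in Tregs, against 199 and 133 CPM.

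Among 28 genes of effector and tissue Tregs, 16 rose over conventional CD4 T cells, against 3.40% of all genes, and 11 did not pass. Only 1, the chemokine receptor Cxcr6, fell, against 4.39% of all genes. Il1rl1 had 519 CPM in Tregs of AF12198-treated tumour and 446 CPM in those of control tumour, against 128 and 63.3 CPM in conventional CD4 T cells and 7.65 and 5.43 CPM in CD8 T cells. It rose by a log2 fold change of 2.28 over conventional CD4 T cells (standard error, SE, 0.19, edgeR adjusted p = 1.18e-05) and by 6.12 over CD8 T cells (SE 0.21, adjusted p = 3.65e-09). SEs here are the log2 fold change over the square root of its F statistic. Thinned to 1000 UMIs, Il1rl1 was found in 37.3% and 38.0% of Tregs, against 5.52% and 6.67% of conventional CD4 T cells and 0.585% and 0.589% of Csf3r-positive cells.

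The genes that accompany Il1rl1 in tissue Tregs rose as well. Klrg1, an inhibitory receptor of differentiated cells, had 316 and 232 CPM in Tregs of AF12198-treated and control tumour, against 45.7 and 45.8 CPM in conventional CD4 T cells (log2 fold change 2.55, SE 0.29). Areg had 964 and 701 CPM in Tregs, against 234 and 193 CPM (1.91, SE 0.16). Gata3 had 285 and 504 CPM in Tregs, against 116 and 140 CPM (1.51, SE 0.17). In these 3 genes both Treg libraries lay above both conventional CD4 libraries. The share of all genes in which they do so is not given, so this is a description only. Maf (1.47), the costimulatory receptor Tnfrsf9 (4-1BB, 1.43), the chemokine receptor Ccr2 (1.80), Tnfrsf8 (CD30, 3.28), Havcr2 (TIM-3, 1.12), Cd81 (1.05) and Samsn1 (0.65) rose too. Icos (edgeR adjusted p = 0.0443), Batf (0.0306) and Irf4 (0.0426) lay near the threshold. Icos did not pass without doublets (0.116), and Batf (0.146) and Irf4 (0.127) did not pass with DESeq2. Cxcr6 did not pass when thinned (0.0632) or with Cd4-positive Tregs (0.065).

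The starts of Il1rl1 are shown because Il1rl1 was among the genes that stood highest in Tregs over CD8 T cells and Gata3, whose family binds GATA letters, rose with it; they were chosen after these values were seen. The 250 bases before each RefSeq start on GRCm38.p6 lie at chr1:40429320-40429569 and chr1:40439379-40439628, both on the plus strand. Capitals mark the GATA letters AGATAA or TGATAA and the forkhead letters GTAAACA (the family of Foxp3), on either strand.
Il1rl1 upstream start: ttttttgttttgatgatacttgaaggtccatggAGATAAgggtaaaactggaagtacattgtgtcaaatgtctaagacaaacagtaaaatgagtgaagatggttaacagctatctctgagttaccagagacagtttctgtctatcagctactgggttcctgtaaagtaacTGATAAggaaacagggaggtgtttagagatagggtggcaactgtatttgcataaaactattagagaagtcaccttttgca
Il1rl1 downstream start: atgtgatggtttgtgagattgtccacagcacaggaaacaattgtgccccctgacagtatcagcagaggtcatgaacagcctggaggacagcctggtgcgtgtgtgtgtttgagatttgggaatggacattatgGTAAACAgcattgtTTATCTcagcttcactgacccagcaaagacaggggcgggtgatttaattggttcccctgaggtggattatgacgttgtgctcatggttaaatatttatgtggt

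The upstream window holds 2 GATA matches, and the downstream one 1 GATA match and 1 forkhead match. The window of Il2ra, read in the same way, holds neither. Of 32851 promoter windows of the same length, 16.6% hold a GATA match and 3.17% a forkhead match. Of the 26 core and effector genes that rose, 17 had windows, 19 in all, of which 6 held a GATA match and 1 a forkhead match. The STAT letters TTCNNNGAA were in 2 of the 19 windows and 7.02% of all, and the ETS or NFAT letters GGAAA, which can overlap them, in 14 of the 19 and 55.6% of all. A match in letters is not a binding site, and counts from the 3' end do not tell which start was used.

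Among 15 genes of resting and central T cells, 1 rose over conventional CD4 T cells, 6 fell and 8 did not pass. The shares of all genes were 3.40% higher and 4.39% lower. Tcf7 (TCF1, a factor of naive and memory T cells) had 5.25 and 5.86 CPM in Tregs of AF12198-treated and control tumour, against 153 and 82.2 CPM in conventional CD4 T cells (log2 fold change -4.55, SE 0.40, edgeR adjusted p = 2.28e-05). The survival factor Bcl2 had 5.25 and 32.2 CPM in Tregs, against 106 and 183 CPM. Bach2, the egress receptor S1pr1, Txk and Lef1 fell as well. Lef1 did not pass with DESeq2 (adjusted p = 0.206).

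Of 17 suppressive mediators, 6 rose and 2 fell over conventional CD4 T cells, against 3.40% and 4.39% of all genes. Gzmb (granzyme B) had 405 and 255 CPM in Tregs, against 85.9 and 37.7 CPM in conventional CD4 T cells and 480 and 173 CPM in CD8 T cells, from which it did not differ past the threshold (edgeR adjusted p = 0.957). Itgb8, an integrin chain that activates TGF-beta, had 121 and 296 CPM in Tregs, against 42.9 and 110 CPM in conventional CD4 T cells. Ebi3, a subunit of interleukin-35, had 61.6 and 96.7 CPM, against 26.5 and 29.6 CPM, and did not pass with DESeq2 (adjusted p = 0.0564). The inhibitory receptor Lag3 (-1.90) and Prf1 (perforin, -1.29) fell on the log2 scale. Il10 was low, found in 5 of 162 and 4 of 81 Tregs.

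Some cytokine genes of helper T cells were nearly absent, but Tnf was not. Ifng (interferon gamma) had 2 UMIs over all Tregs and 317 over conventional CD4 T cells, a CPM ratio of 0.0105 (exact counting interval 0.00127 to 0.0383). Il17a had 2 UMIs in Tregs and 56 in conventional CD4 T cells, Csf2 had 2 and 103, and Cd40lg, which licenses antigen-presenting cells, had 3 and 73. All 4 passed the edgeR test. Tnf, of the same list, had 220 CPM in Tregs of AF12198-treated tumour and 44.0 CPM in those of control tumour. In conventional CD4 T cells it had 110 and 66.0 CPM. The ratio of AF12198-treated over control tumour for Tnf in Tregs was 5.01 (exact counting interval 2.95 to 9.15). Tnf UMIs were found in 32 of 162 Tregs of AF12198-treated tumour and 13 of 81 of control tumour. Over all kept cells of these libraries Tnf stood higher than in Tregs, at 330 and 174 CPM. The part of stray Tnf from other cells in the Treg levels and their ratio was not tested. Of 13 helper lineage genes tested, 7 fell and 2, Gata3 and Maf, rose, against 4.39% and 3.40% of all genes.

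Among checkpoint and costimulatory receptors 6 of 18 rose and 5 fell, namely Pdcd1 (PD-1, log2 fold change -0.66), Lag3, Cd96 (-2.74), Cd28 (-0.63) and Cd226 (-1.28). Pdcd1 did not pass with DESeq2 (adjusted p = 0.059), and with edgeR it did not pass without doublets (0.05), when thinned (0.384) or with Cd4-positive Tregs (0.223). Of 21 cytokine receptor genes Il2ra rose, while Il21r (-1.07) and Tgfbr2 (-1.87) fell. With 3.40% of all genes higher and 4.39% lower, so few calls show nothing about that list. Of 13 JAK-STAT genes 5 rose, among them Socs2 (1.61), Cish (0.71), Bcl2l1 (0.97) and Pim1 (0.71), and none fell. Of 15 interleukin-1 family genes Il1rl1 rose and Il18r1, an interleukin-18 receptor chain, fell (-0.97, SE 0.22), which likewise shows nothing about the list. Of 20 homing genes 6 rose and 2 fell, with rises in the gut-homing Ccr9 (138 and 64.5 CPM in Tregs, against 17.4 and 8.08 CPM) and Itgb7 (331 and 287 CPM, against 165 and 80.8 CPM).

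By size of change, the genes highest in Tregs over conventional CD4 T cells under the naming rule were Ermn, Ednrb, Tnfrsf8, Kcna4, Rragd, Mreg, Dmbt1, Ccr9, Laptm4b, Itgae, Pnlip and Il2ra. Ednrb, the endothelin B receptor, had 127 and 167 CPM in Tregs of AF12198-treated and control tumour, against 11.9 and 13.5 CPM in conventional CD4 T cells (log2 fold change 3.47, SE 0.29, edgeR adjusted p = 1.18e-05). Ermn, a cytoskeletal protein known from oligodendrocytes, had 93.1 and 17.6 CPM, against 8.22 and 1.35 CPM. Dmbt1 and the lipase Pnlip are made by pancreatic epithelium. With barcodes holding 2% or more of other cell types' marker UMIs left out, an alternative added after seeing the data, their log2 fold changes were 0.32 and 0.03 (adjusted p = 0.803 and 0.994). The lowest were Serpinb9b, Gzme, Oaf, Mfap4, Mxra7, Ifng, Gm156 and Spon1. Mfap4 had 0 UMIs in Tregs of both tumours, against 1 and 40 in conventional CD4 T cells of AF12198-treated and control tumour, so its call rests on control tumour. Mfap4 and Mxra7 did not pass with Cd4-positive Tregs (edgeR adjusted p = 0.109 and 0.0576). Mfap4 and Spon1 are matrix genes, and fibroblast markers were high in conventional CD4 T cells of control tumour (Col1a1 at 2321 CPM). Their part in these falls was not tested. On the higher side Kcna4 did not pass when thinned (0.0569), nor Rragd and Mreg with Cd4-positive Tregs (0.0791 and 0.156). Against a floor of 3 UMIs over both libraries, Serpinb9b was at least 13.6-fold lower and Gzme, a granzyme, at least 11.0-fold lower in Tregs.

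**Figure D3:**
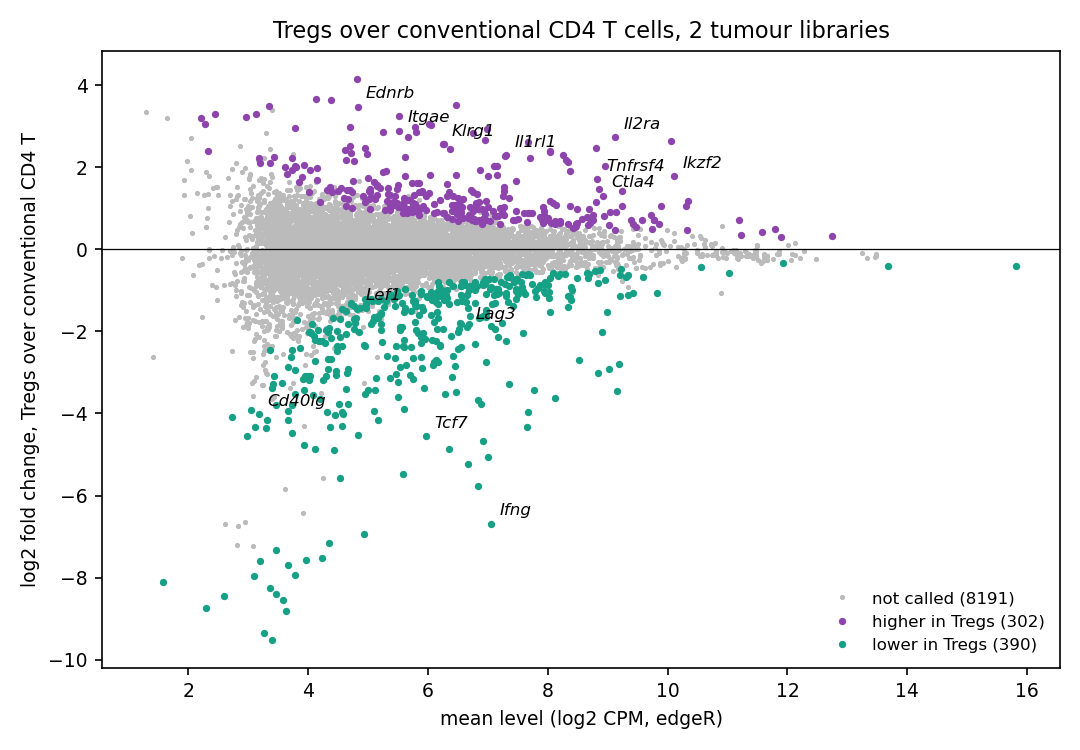
Each point is 1 of 8883 genes, with its mean level (log2 CPM) on the x axis and its log2 fold change in Tregs over conventional CD4 T cells on the y axis; purple marks the 302 genes that rose and green the 390 that fell at an edgeR adjusted p under 0.05. Ednrb (3.47) and Itgae (2.89) lie near the top, and Ifng (-6.68) and Tcf7 (-4.55) well below 0.

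Over CD8 T cells, Pcsk1, a prohormone convertase, rose most under the naming rule. It had 126 and 120 CPM in Tregs of AF12198-treated and control tumour, against 0.333 and 0.181 CPM in CD8 T cells (log2 fold change 8.53, SE 0.42, edgeR adjusted p = 3.98e-08). Tnfrsf8, Ermn, Il1rl1, Klrg1, Ccr4, Ednrb, Itgb8, Frmd5, Maf, Mgmt and Fam83g followed. The lowest were Gzmf, Crtam, Dapk2, Gm156, Ifng, Klri2, Nrgn and Xcl1, a chemokine for cross-presenting dendritic cells. Gzmf, with 0 UMIs in Tregs and 502 in CD8 T cells, was at least 16-fold lower. Of 20 NF-kB genes 13 rose over CD8 T cells and 5 over conventional CD4 T cells, against 5.98% and 3.40% of all genes. None fell in either comparison.

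Some cell cycle, antigen presentation and interferon genes rose in Tregs over conventional CD4 T cells, and most members of each list did not pass. Of all genes, 3.40% rose and 4.39% fell. Of 22 cell cycle genes 7 rose and none fell, with Mki67 at 282 and 193 CPM in Tregs of AF12198-treated and control tumour, against 76.8 and 99.7 CPM. Of 14 MHC class I genes 6 rose and none fell, among them H2-K1 (0.41 on the log2 scale) and the peptide transporter Tap1 (0.94). Of 20 interferon-response genes 6 rose and none fell, among them Igtp (1.45) and Iigp1 (1.16). Of 21 metabolism genes 3 rose, namely Pkm, Ddit4 and Fabp5. Of 20 NFAT and calcineurin genes 1 rose, Tnfrsf9, and Nfatc1 (-1.63), Nr4a2 (-1.10) and Tox (-1.62) fell. Nr4a2 did not pass with DESeq2 (adjusted p = 0.348).

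Stress genes and markers of other cells also differed between the classes. Of 21 dissociation-stress genes 8 fell in Tregs over conventional CD4 T cells, Fos (-1.15) and Hspa1b (-0.63) among them. Only 1, Hsp90ab1, rose. The shares of all genes were 4.39% lower and 3.40% higher. Fos (edgeR adjusted p = 0.277) and Hspa1b (0.0708) did not pass when thinned. Of 10 fibroblast and endothelial markers 6 fell, with Col1a1 at 14.4 and 229 CPM in Tregs of AF12198-treated and control tumour, against 194 and 2321 CPM in conventional CD4 T cells. Of 11 epithelial and acinar markers 6 rose, with Ctrb1 at 2728 and 29.3 CPM in Tregs, against 248 and 39.1 CPM. Of 12 macrophage markers 3 fell, of 7 NK markers 5 fell, and of 10 neutrophil markers 0 passed. The part of these transcripts in the other differences was not tested beyond the alternative that leaves such barcodes out, in which 62 of 69 named genes stayed on the same side of the threshold.

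Marker detection varied from Treg to Treg. Thinned to 1000 UMIs, 85% of 153 Tregs of AF12198-treated tumour and 84.8% of 79 of control tumour held an effector marker, 29.4% and 20.3% a central marker, and 24.8% and 19.0% both. Il1rl1-positive cells numbered 57 and 30. Klrg1 was found in 38.6% of Il1rl1-positive and 19.8% of Il1rl1-negative Tregs of AF12198-treated tumour, and in 23.3% and 8.16% of those of control tumour. Gata3 was found in 36.8% and 9.38% in AF12198-treated tumour, and in 43.3% and 36.7% in control tumour. Mki67 was found in 1 of 57 Il1rl1-positive and 15 of 96 Il1rl1-negative Tregs of AF12198-treated tumour, and in 2 of 30 and 5 of 49 of control tumour. These shares describe the cells of 1 library each and carry no test.

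**Figure D4:**
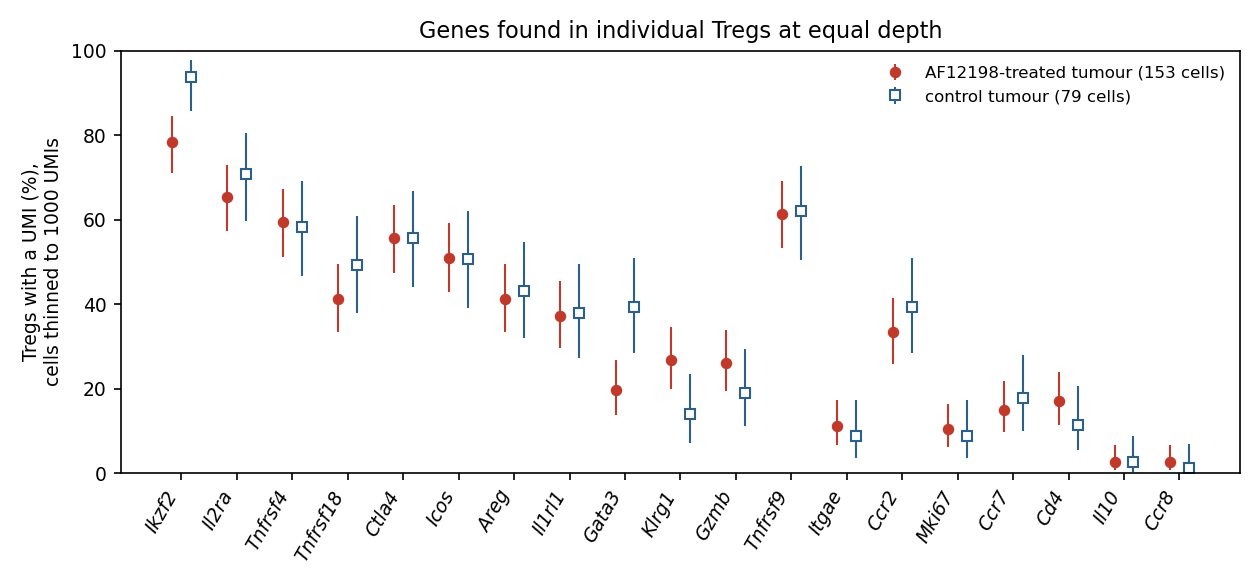
Percent of Tregs with a UMI of each of 19 genes after every cell was thinned to 1000 UMIs, for AF12198-treated tumour (filled circles, 153 cells) and control tumour (open squares, 79 cells), with exact binomial 95% intervals. Gata3 is found in 19.6% and 39.2% of Tregs and Ikzf2 in 78.4% and 93.7%, while the intervals of Il2ra, Tnfrsf4 and Il1rl1 overlap.

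Within Tregs, AF12198-treated tumour was set against control tumour gene by gene. Of 10044 genes measured, 15.5% stood at least 1.5-fold higher and 35.4% at least 1.5-fold lower, while counting intervals lay above 1 for 5.46% and below 1 for 17.1%. The median log2 difference was -0.32, against -0.42 in conventional CD4 and -0.45 in CD8 T cells. With the Treg median set to 0, 24.1% stood higher and 21.1% lower. Values below are CPM ratios of AF12198-treated over control tumour with exact counting intervals.

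Of 22 core identity genes measured, 2 stood at least 1.5-fold higher and 8 lower, near the 15.5% and 35.4% of all genes, so the count shows nothing about the list. Ikzf2 had 1628 CPM in Tregs of AF12198-treated tumour and 3295 CPM in those of control tumour, a ratio of 0.494 (0.455 to 0.536), and its ratio was 0.426 in conventional CD4 and 0.437 in CD8 T cells. Ctla4 had a ratio of 0.715 (0.628 to 0.814), against 0.689 in conventional CD4 and 0.612 in CD8 T cells. Il2ra had 0.852 (0.769 to 0.945), which turns to a log2 difference of 0.09 with the median of all genes set to 0. Tnfrsf4 (1.07) and Tnfrsf18 (0.991) had intervals that spanned 1. Capg, an actin-capping protein, stood higher at 2.09 (1.59 to 2.77), against 1.29 in conventional CD4 and 1.59 in CD8 T cells.

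Of 29 effector and tissue Treg genes measured, 4 stood at least 1.5-fold higher and 5 lower, against 15.5% and 35.4% of all genes. Gata3 had 285 CPM in Tregs of AF12198-treated tumour and 504 CPM in those of control tumour (0.564, 0.460 to 0.694), against a ratio of 0.828 in conventional CD4 T cells. Rora had 746 and 1428 CPM (0.523, 0.462 to 0.591), against 0.847. Areg had 964 and 701 CPM (1.38, 1.19 to 1.60), but its log2 difference was -0.16 among Tregs with at least 2 Foxp3 UMIs. Il1rl1 had 519 and 446 CPM, with an interval that spanned 1 (0.964 to 1.41), against a ratio of 2.02 (1.44 to 2.88) in conventional CD4 T cells. Klrg1 (1.36, 1.05 to 1.78), Cxcr6 (1.92, 1.29 to 2.94), S100a4 (2.18) and the galectin Lgals1 (2.14) stood higher. S100a4 and Lgals1 also did so in conventional CD4 (1.65 and 1.44) and CD8 T cells (1.99 and 1.81). The tumour Treg receptor Ccr8 had 11 UMIs in AF12198-treated tumour and 1 in control tumour (4.92, 0.715 to 212).

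**Figure D5:**
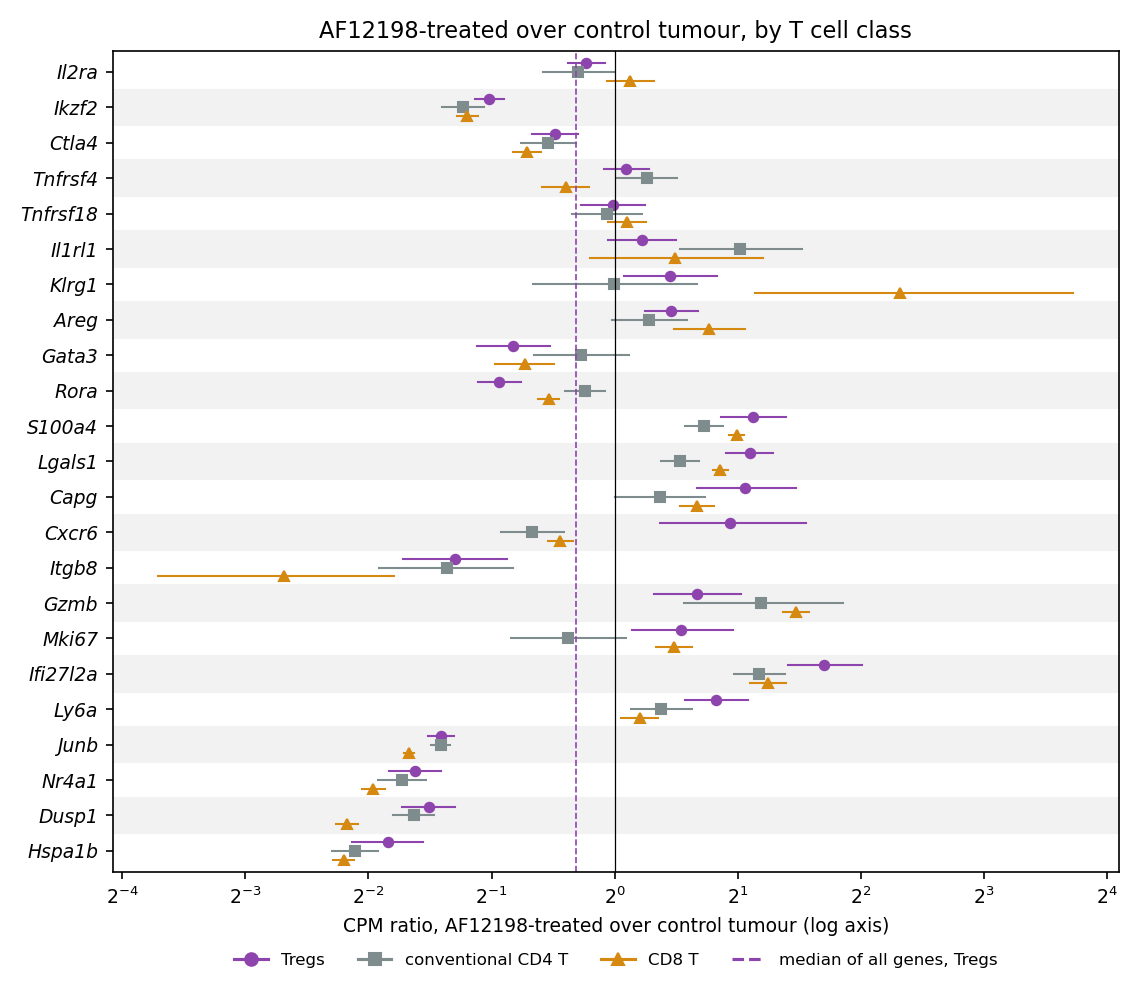
CPM ratio of AF12198-treated over control tumour (log axis) for 23 genes in Tregs (purple circles), conventional CD4 T cells (grey squares) and CD8 T cells (orange triangles), with exact 95% counting intervals; the dashed line is the median of all genes in Tregs. Junb, Nr4a1, Dusp1 and Hspa1b lie well left of that line in all 3 classes, and Cxcr6 lies right of 1 in Tregs and left of 1 in the other classes.

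Of 18 suppressive mediators, 2 stood at least 1.5-fold higher and 6 lower, near the shares of all genes. Gzmb had 405 CPM in Tregs of AF12198-treated tumour and 255 CPM in those of control tumour (1.59, 1.25 to 2.04). Its ratio was 2.28 in conventional CD4 and 2.78 in CD8 T cells. Itgb8 had 121 and 296 CPM in Tregs (0.408, 0.304 to 0.546), against 0.389 in conventional CD4 and 0.155 in CD8 T cells. Both genes thus moved the same way in all 3 T cell classes. Il10 had 14 and 16 UMIs from 5 and 4 cells (0.391, 0.177 to 0.856), and its log2 difference was 1.92 among Cd4-positive Tregs. For the receptor that AF12198 blocks, Il1r1 had 1 UMI in Tregs of AF12198-treated tumour and 3 in those of control tumour, too few to compare. The decoy receptor Il1r2 had 195 and 378 CPM (0.517, 0.405 to 0.659), against 0.498 in conventional CD4 and 0.347 in CD8 T cells; it is also a neutrophil gene.

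Junb, Nr4a1, Dusp1 and Hspa1b stood lower in AF12198-treated tumour in all 3 T cell classes. Junb, an AP-1 subunit, had 1658 CPM in Tregs of AF12198-treated tumour and 4406 CPM in those of control tumour (0.376), with ratios of 0.376 in conventional CD4 and 0.315 in CD8 T cells. Nr4a1, a target of antigen receptor signalling, had 422 and 1299 CPM (0.325), Dusp1 had 425 and 1211 CPM (0.351) and the heat shock gene Hspa1b had 216 and 777 CPM (0.279). Nr4a2 had 150 and 642 CPM, with a ratio of 0.233 in Tregs and 0.627 in conventional CD4 T cells. Of 20 measured NFAT and calcineurin genes 2 stood at least 1.5-fold higher and 12 lower, the calcineurin subunits Ppp3ca (0.41) and Ppp3r1 (0.39) among them. Of 20 NF-kB genes 1 stood higher and 8 lower, and of 21 dissociation-stress genes 0 and 9, the lower counts of both lists being near the 35.4% of all genes. The heat shock gene Hsp90aa1 stood lower in Tregs and higher in conventional CD4 T cells (1.14, 1.05 to 1.24). The part of dissociation stress in these ratios was not tested.

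Of 19 measured interferon-response genes 7 stood at least 1.5-fold higher and 5 lower, against 15.5% and 35.4% of all genes. Ifi27l2a had 993 CPM in Tregs of AF12198-treated tumour and 305 CPM in those of control tumour (3.26, 2.65 to 4.04), with ratios of 2.26 in conventional CD4 and 2.37 in CD8 T cells. Ly6a had 842 and 475 CPM (1.77), Bst2 a ratio of 1.90 and Zbp1 one of 2.24. Of 22 cell cycle genes 1, Cenpf, stood at least 1.5-fold higher and 4 lower. Mki67 had 282 and 193 CPM (1.46, 1.10 to 1.95) while Top2a had 313 and 542 CPM (0.578, 0.475 to 0.704), with a log2 difference of 0.03 among Cd4-positive Tregs. Mki67 UMIs were found in 31 of 162 Tregs of AF12198-treated tumour (19.1%) and 20 of 81 of control tumour (24.7%). A single cell held up to 30 of 215 and 18 of 66 of them.

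The largest differences were in genes of other cell types. The 10 highest were Cela2a, Cela3b, Cpa1, Reg3a, Spink1, Ctrl, Gp2, Try5, 2210010C04Rik and Reg1, mostly acinar enzymes. Epithelial and acinar markers summed to 5148 CPM in Tregs of AF12198-treated tumour and 633 CPM in those of control tumour, and 3 barcodes held 83.4% of those UMIs in AF12198-treated tumour. The 10 lowest were Dcn, Spry2, Gm42031, Ccdc80, Col6a1, Ighg2b, Igf1, Col1a2, Col1a1 and Sparc, mostly matrix genes. Fibroblast and endothelial markers summed to 140 and 1278 CPM, B and plasma cell markers to 345 and 1193 CPM, and neutrophil markers to 3638 and 1519 CPM, while the endothelial marker Cdh5 had 0 UMIs in both. Without the 14 and 2 Tregs that held 2% or more of such UMIs, 88 of 100 named ratios stayed within their counting interval.

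A second naming rule, set after these values were seen, kept genes that, in the library where they stood higher, had at least 2 times the CPM in Tregs that they had over all kept cells, with no cell holding over 25% of their Treg UMIs. A gene passes it through the library where it is high and the genes were ranked by the ratio, so the ratios are a description only. On the higher side it gave 6 histone genes, Ermn, Ttc33, 1500009L16Rik and Mt3, whose log2 difference turned to -0.86 when cells were thinned to 1000 UMIs. Hist1h1b had 113 UMIs in Tregs of AF12198-treated tumour and 3 in those of control tumour (16.9, 5.62 to 82.9), with a ratio of 12.3 in conventional CD4 T cells. Ermn had 71 and 6 UMIs (5.29, 2.32 to 14.9), and its ratio in conventional CD4 T cells (6.11, 0.846 to 268) was not resolved. On the lower side it gave Gm43305, Ndufaf4, Gm48302, Rnf152, Rbmx, Traf6, Scai, AI504432, Spata2 and Ccnd3. Spata2 had 17 and 26 UMIs (0.292, 0.149 to 0.560), and its interval in conventional CD4 T cells (0.848 to 2.57) spanned 1. Traf6, an adaptor of interleukin-1 and Toll-like receptor signalling, had 13 and 21 UMIs (0.277, 0.127 to 0.580), and Ccnd3 (cyclin D3) had 28 and 41 (0.306, 0.182 to 0.506).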

How the data were processed

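UMI counts per gene and barcode were deposited by the authors as filtered matrices, made with Cell Ranger 6.0.0 on mm10 per the submitters' processing notes; no other step is recorded there. Members and gene lists were chosen with earlier results of these data known. Classes were set by the transcripts given in the report. Conventional CD4 T cells had Cd3 and Cd4 UMIs and no Foxp3, Cd8a, Cd8b1, Csf1r or Cd79a; CD8 T cells had Cd3 and Cd8a or Cd8b1 UMIs and no Cd4, Foxp3, Csf1r or Cd79a. The 9 genes of these gates were not tested. UMIs were summed per class and library and tested with edgeR 4.0.16 (R 4.3.3; TMM, filterByExpr, Benjamini-Hochberg over all genes); DESeq2 1.42.0 was an alternative. No doublets were removed; Scrublet (Scanpy 1.11.5) marked 14 of 162 Tregs in AF12198-treated tumour and 10 of 81 in control tumour. AF12198 ratios needed 5 UMIs in all and 5 CPM in 1 library; log2 differences added 1 CPM. Genes were named from the lists, or as the 12 highest and 8 lowest tested changes with 20 CPM in a class, and the 10 highest and 10 lowest ratios with 10 UMIs in 5 cells. Scripts were tested on simulated data. Some list members counted in the totals are not reported here by name.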

Additional observations from a re-analysis of the deposited data

Results flagged for a closer look

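Of 331 list genes measured in both classes, 9 had AF12198 over control intervals on opposite sides of 1 in Tregs and in conventional CD4 T cells; the difference itself was not tested. Values here are the log2 difference in Tregs minus that in conventional CD4 T cells. Cxcr6 gave 1.60, S100a6 gave 1.05 (1 cell held 30.9% of its Treg UMIs in AF12198-treated tumour and 1 held 40.9% in control tumour), Iigp1 gave 1.11 and Cenpf gave 3.20. Ccl5 gave -2.85, Pclaf gave -1.11 and Hsp90aa1 gave -0.37. Gzma (-8.07) and Gzmk (-8.02) had 0 Treg UMIs in AF12198-treated tumour, and 1 cell held 73.7% and 100% of those in control tumour.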

How the results depend on the processing

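The Treg share ratio stayed above 1 for all kept cells and for Cd3-positive cells under every alternative run (1.40 over Cd3-positive cells, 1.71 over kept cells, with cells thinned to 1000 UMIs), while over Tregs and conventional CD4 T cells it fell between 0.94 and 1.18. With the median set to 0, 2423 genes stood higher and 2123 lower; with at least 20 UMIs and 20 CPM, 718 and 2080; thinned, 1992 lower. Tregs over conventional CD4 T cells gave 185 higher and 203 lower with DESeq2, 0 and 0 without the library block, and 139 and 107 when thinned (4438 genes tested). Over CD8 T cells the counts were 339 and 284 with DESeq2, 71 and 46 without the block, 311 and 282 when thinned, and 346 higher with Cd4-positive Tregs. Signs turned for Mt3 when thinned (-0.86), Il2ra with the median set to 0 (0.086), Areg with 2 Foxp3 UMIs (-0.16), and Il10 (1.92) and Top2a (0.031) with Cd4-positive Tregs; the cause was not tested. For AF12198-treated against control tumour: No paired analysis was possible because each group has 1 library. Tregs and the other T cells were paired within each tumour library by the block. The main limits are 1 library per group, 81 Tregs in control tumour, and a Foxp3 gate that misses cells of low depth.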
